A study of Homo sapiens with 8 samples.

Results

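The genes described here encode 10 carriers of amino acids: SLC7A5, SLC7A11, SLC3A2, SLC7A1, SLC38A1, SLC38A2, SLC1A4, SLC1A5, SLC6A9 and SLC43A1. They were chosen by symbol from the 26364 gene symbols of an RNA-seq table of MV4-11 cells, and all 10 were found. The list was chosen by results of these same libraries, in which SLC7A11 moved opposite to SLC7A5. The differences of SLC7A5 and SLC7A11 are therefore given as a description, with no p-value. The other 8 genes carry the adjusted p of a test run over all genes.

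MV4-11 is an established human line of acute myeloid leukemia (AML) with the MLL-AF4 fusion and FLT3-ITD, a tandem duplication within the receptor gene FLT3. The 4 groups of 2 libraries were DMSO (the vehicle), TCP at 5 μM, palbociclib at 0.5 μM, and both drugs at these doses, called the combination below. TCP (tranylcypromine) inhibits the histone demethylase LSD1, and palbociclib inhibits the cell cycle kinases CDK4 and CDK6. The labels place all libraries at day 4. The methods of the study describe 1 day of the CDK6 inhibitor alone followed by 3 days with both molecules, and AML lines kept on a layer of the stromal line HS-5, so the duration of TCP alone is not settled by these sources. All groups share the cell line and the culture, which is 1 line and no independent set of patients.

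Values are TPM, transcript levels scaled for gene length so that they sum to 1000000 in each library. Since TPM keep no read counts, sequencing depth is unknown here. The number of genes at 1 TPM or more was 13320 to 13640. The labels do not say whether the 2 libraries of a group came from separate cultures, so p-values measure the spread between these libraries, which may be technical. Tests were run with limma on log2(TPM + 1) over 14151 genes, and a gene was past the thresholds when its log2 fold change reached 1 in either direction with an adjusted p below 0.01. The exact two-sided permutation test of one gene, 2 libraries against 2, has p = 0.333 as its smallest value.

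Cells import amino acids through families of solute carriers that differ in substrate and driving force. Some accumulate neutral amino acids with sodium, while others exchange one amino acid for another, so that glutamine taken up by the first kind can be traded for leucine by the second. SLC3A2 (4F2hc, CD98) is not a channel itself but the heavy chain that brings several light chains to the plasma membrane, among them SLC7A5 (LAT1), which imports leucine and other large neutral amino acids, and SLC7A11 (xCT), which imports cystine for glutathione synthesis in exchange for glutamate. In proliferating leukemia cells these carriers feed protein synthesis and mTORC1 signaling.

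The cell type was checked against fixed markers. AML line markers summed to 890 to 977 TPM in the 8 libraries, with CD34 at 0 in 5 of them and below 0.04 TPM in the others. Single markers changed within that sum. With palbociclib, log2 fold changes of the 9 tested ran from -1.52 to 0.91, and FLT3 was lower past the thresholds, though not without palbociclib replicate 2. With the combination they ran from -1.71 to 1.01, with 1 called higher and 1 lower. Over all genes tested, 9.1% and 13.7% were past the thresholds. The 12 stromal markers were looked up because of the HS-5 layer, and 1 library stood apart. They summed to 24.1 to 62.1 TPM in 7 libraries and to 157 TPM in palbociclib replicate 2, where COL1A1 reached 22.2 TPM and COL3A1 17.5 TPM. Of the 12 markers, 10 reached 1 TPM in that library and 3 to 8 in the others, and LUM, a defining stromal gene, stayed below 0.2 TPM throughout. The 12 markers summed to 47.0 and 62.1 TPM with the combination and to 24.1 and 35.3 TPM in DMSO. All 9 tested markers had log2 fold changes above 0 in that comparison (median 0.80), with 0 past the thresholds. With palbociclib against DMSO all 9 were above 0 as well (median 1.16), again with 0 past the thresholds. The marker sums of its replicates 1 and 2 were 34.5 and 157 TPM. Results that rest on palbociclib replicate 2 are given with and without it below. The part of stromal RNA in them and in the combination results was not tested. In bulk RNA, fewer cells of a type and less RNA per cell cannot be told apart.

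Of the 8 transporters with a test, 7 fell past the thresholds with palbociclib and 7 with the combination, and 0 rose. SLC43A1 was the gene that did not pass the fold threshold in either comparison. SLC7A5 and SLC7A11, which carry no test, had log2 fold changes of -2.45 and 1.97 with palbociclib and of -2.55 and 1.47 with the combination. Without palbociclib replicate 2, 4 of the 7 palbociclib calls remained (SLC7A1, SLC38A2, SLC1A4 and SLC1A5), and SLC3A2, SLC38A1 and SLC6A9 lost theirs. These 3 genes also lost their calls without palbociclib replicate 1 and without DMSO replicate 1. Over all genes tested, 9.1% were past the thresholds with palbociclib (4.56% lower, 4.54% higher) and 13.7% with the combination (7.82% lower, 5.87% higher). Since the list was chosen by this contrast, nothing is read from its counts. TCP alone put 0 of the 8 tested genes past the thresholds in limma, against 0.0565% of all genes. An unadjusted limma p below 0.05 was held by 4 of the 8 and by 1241 of all 14151 genes tested.

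The median log2 fold change of the 10 genes was -0.31 with TCP, -1.54 with palbociclib and -1.62 with the combination, while the median over all genes tested was -0.04, -0.16 and -0.22. The summed TPM of the 10 genes was 1581 and 1419 in DMSO, 1430 and 1127 with TCP, 568 and 598 with palbociclib, and 496 and 512 with the combination. The sums of the TCP libraries reached into the DMSO range, and those of the palbociclib and combination libraries were all below it. Both treated libraries lay below both DMSO libraries for 9 of the 10 genes with palbociclib and with the combination, which 49.7% and 54.2% of all genes tested also did. SLC7A11 was the exception in both.

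**Figure D1:**
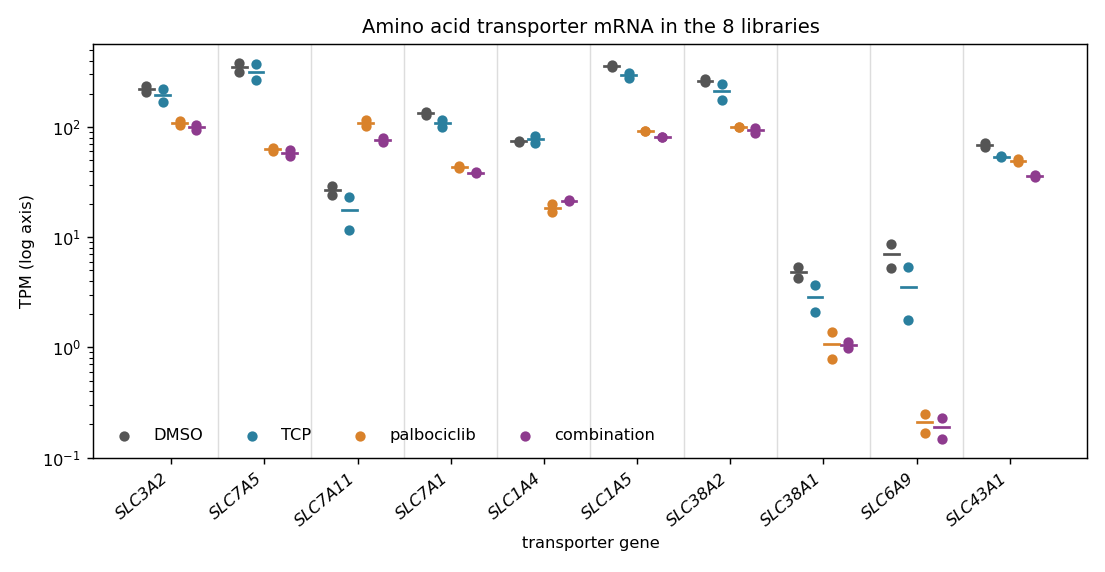
TPM (log axis) of each transporter in the 8 libraries, coloured by group. Points are single libraries and short lines are group means (n = 2). SLC7A11 is the gene whose palbociclib and combination points lie above its DMSO points, and SLC6A9 and SLC38A1 are the genes of lowest level.

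The heavy chain SLC3A2 (chr11:62623476-62656352, plus strand, GRCh37) was measured at 237 and 207 TPM in DMSO, 221 and 167 TPM with TCP, 104 and 114 TPM with palbociclib, and 93.4 and 105 TPM with the combination. All 4 libraries with palbociclib lay below all 4 without it. Its log2 fold change was -1.02 ± 0.14 (SE) with palbociclib (limma adjusted p = 0.0017) and -1.15 ± 0.14 with the combination (limma adjusted p = 0.00069). The combination value was -0.92 after scaling by median ratios and -0.998 after quantile normalization, both short of the fold threshold. The palbociclib value sits at that threshold, and it was -0.86 and -0.92 after these scalings, again short of it. Without palbociclib replicate 2 it was -1.08 with a limma adjusted p of 0.011.

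SLC7A5 (chr16:87863629-87903113, minus strand, GRCh37), the leucine exchanger, had 381 and 312 TPM in DMSO. It had 370 and 264 TPM with TCP, a range that overlapped that of DMSO. It had 60.1 and 64.9 TPM with palbociclib and 54.4 and 62.0 TPM with the combination. The 4 libraries with palbociclib were close to each other and below all 4 others. The mean was 5.54 times higher in DMSO than with palbociclib and 5.96 times higher than with the combination, and the log2 fold changes were -2.45 ± 0.17 and -2.55 ± 0.17 (SE, n = 2 libraries a group).

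SLC7A11 (chr4:139085251-139163503, minus strand, GRCh37), the cystine exchanger, had 29.2 and 24.3 TPM in DMSO and 23.3 and 11.6 TPM with TCP. It had 101 and 115 TPM with palbociclib and 72.9 and 78.5 TPM with the combination. The groups did not overlap, and their order was TCP, DMSO, combination and palbociclib from low to high. The mean was 4.02 times higher with palbociclib than in DMSO and 2.83 times higher with the combination, with log2 fold changes of 1.97 ± 0.28 and 1.47 ± 0.28 (SE). Without palbociclib replicate 2 the first of these was 1.88 and without palbociclib replicate 1 it was 2.06. The combination lay 0.50 ± 0.28 log2 units below palbociclib, and TCP lay 0.66 ± 0.28 below DMSO. The second of these rested on TCP replicate 2, and it was -0.19 without that library and -1.14 without TCP replicate 1.

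**Figure D2:**
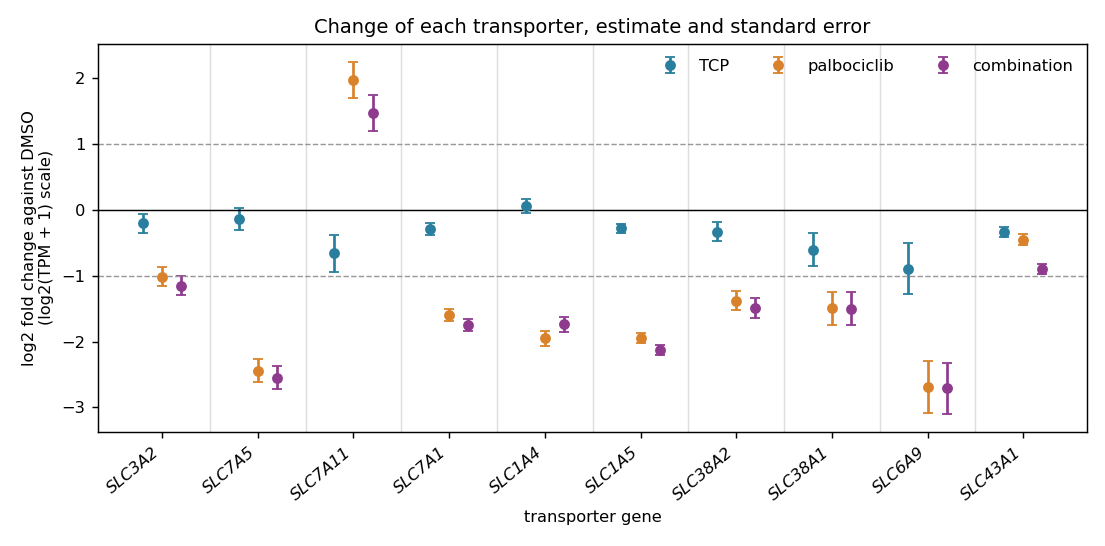
Log2 fold change of each transporter against DMSO on the log2(TPM + 1) scale, for TCP, palbociclib and the combination. Points are limma estimates, bars are standard errors, and dashed lines mark the fold threshold at 1 and -1. The palbociclib and combination estimates of SLC7A11 lie at 1.97 and 1.47, and those of SLC7A5 at -2.45 and -2.55.

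The exchange of the 2 light chains was followed within each library, as ratios that no scaling between libraries can move. These ratios were computed after the levels had been seen. SLC7A5 stood at 13.0 and 12.8 times the level of SLC7A11 in DMSO and at 15.9 and 22.8 times with TCP. It stood at 0.596 and 0.567 times with palbociclib and at 0.746 and 0.789 times with the combination. SLC7A5 was therefore the more abundant of the pair in all 4 libraries without palbociclib, and SLC7A11 in all 4 libraries with it.

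All light chains that SLC3A2 carries were then summed: SLC7A5, SLC7A11, SLC7A6 and SLC7A7 (exchangers of cationic and neutral amino acids), SLC7A8 and SLC7A10. The sum was 486 and 415 TPM in DMSO, 472 and 357 TPM with TCP, 226 and 240 TPM with palbociclib, and 189 and 201 TPM with the combination. Divided by SLC3A2, this gave 2.05 and 2.01 in DMSO, 2.14 and 2.13 with TCP, 2.18 and 2.12 with palbociclib, and 2.03 and 1.92 with the combination. The ratio of light to heavy chain mRNA stayed between 1.92 and 2.18 while the heavy chain itself went from 237 to 93.4 TPM. This ratio too was computed after the levels had been seen. Most of the sum was SLC7A5 and SLC7A11, whose opposed directions were part of the choice of genes. The ratio is therefore a description, and a link between heavy and light chain levels was not tested.

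The makeup of the sum changed. SLC7A5 made up 78.5% and 75.1% of light chain mRNA in DMSO, 26.6% and 27.0% with palbociclib, and 28.7% and 30.8% with the combination. SLC7A11 made up 6.02% and 5.86% in DMSO, 4.94% and 3.25% with TCP, 44.6% and 47.6% with palbociclib, and 38.5% and 39.0% with the combination. SLC7A6 was the steadiest of the light chains at 56.8 to 76.6 TPM over the 8 libraries, and its share was 14.8% and 18.5% in DMSO and 27.9% and 24.8% with palbociclib. SLC7A8 and SLC7A10 stayed below 1 TPM in every library.

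**Figure D3:**
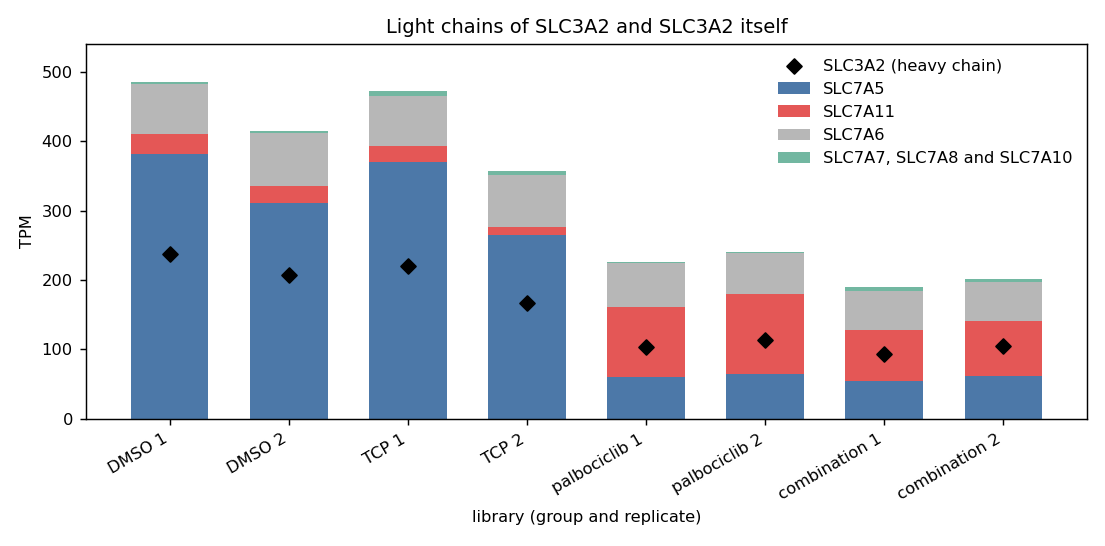
TPM of the light chains of SLC3A2, stacked, in each of the 8 libraries (bars, linear axis from 0), with SLC3A2 itself as black diamonds. The bars shrink from 486 TPM in DMSO replicate 1 to 189 TPM in combination replicate 1, the diamonds shrink with them, and the SLC7A11 segment widens in the 4 libraries with palbociclib.

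SLC7A1 (CAT1, chr13:30083551-30169825, minus strand, GRCh37) is the main carrier of arginine and lysine in many cells and needs no heavy chain. It had 137 and 127 TPM in DMSO, 116 and 99.7 TPM with TCP, 42.3 and 43.9 TPM with palbociclib, and 38.6 and 38.4 TPM with the combination. The groups did not overlap, and the 2 libraries of each group with palbociclib differed by less than 2 TPM. The log2 fold change was -1.59 ± 0.09 with palbociclib (limma adjusted p = 8.7e-05) and -1.75 ± 0.09 with the combination (limma adjusted p = 3.2e-05).

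SLC1A5 (ASCT2, chr19:47278140-47291851, minus strand, GRCh37) exchanges glutamine and other small neutral amino acids with sodium. It was the most abundant of the 10 genes in DMSO, with 365 and 349 TPM. It had 308 and 278 TPM with TCP, 92.0 and 91.6 TPM with palbociclib, and 80.2 and 81.4 TPM with the combination, again with no overlap between groups. The log2 fold change was -1.95 ± 0.07 with palbociclib (limma adjusted p = 2.2e-05) and -2.13 ± 0.07 with the combination (limma adjusted p = 1e-05).

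SLC1A4 (ASCT1, chr2:65215611-65250999, plus strand, GRCh37), its relative that prefers serine, alanine and cysteine, was lower in level. It had 75.1 and 72.7 TPM in DMSO, 82.6 and 71.5 TPM with TCP, 16.8 and 20.1 TPM with palbociclib, and 21.7 and 21.3 TPM with the combination. TCP and DMSO overlapped, and the combination was the group that lay above palbociclib here, by 0.21 ± 0.11 log2 units (95% interval -0.05 to 0.48, limma adjusted p = 0.38). Against DMSO the log2 fold change was -1.95 ± 0.11 with palbociclib (limma adjusted p = 8.2e-05) and -1.74 ± 0.11 with the combination (limma adjusted p = 5.9e-05).

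The pair SLC38A2 and SLC38A1 (SNAT2 and SNAT1) brings in glutamine and alanine with sodium, and SLC38A2 is known to rise when amino acids run short. SLC38A2 (chr12:46751971-46766556, minus strand, GRCh37) had 271 and 253 TPM in DMSO, 246 and 176 TPM with TCP, 101 and 99.7 TPM with palbociclib, and 98.3 and 87.8 TPM with the combination. Its log2 fold change was -1.38 ± 0.15 with palbociclib (limma adjusted p = 0.00063) and -1.49 ± 0.15 with the combination (limma adjusted p = 0.00029).

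SLC38A1 (chr12:46576846-46663800, minus strand, GRCh37) was a minor transcript, at 5.39 and 4.26 TPM in DMSO, 3.68 and 2.09 TPM with TCP, 0.784 and 1.38 TPM with palbociclib, and 0.982 and 1.12 TPM with the combination. Its log2 fold change was -1.49 ± 0.25 with palbociclib (limma adjusted p = 0.0033) and -1.50 ± 0.25 with the combination (limma adjusted p = 0.0024). The first was -1.70 without palbociclib replicate 2. Both calls were lost whenever a library of either compared group was left out. With a library left out the values ran from -1.70 to -1.29 with palbociclib and from -1.64 to -1.36 with the combination. Per unit length SLC38A2 exceeded SLC38A1 50.3 to 128 times in the 8 libraries, so nearly all mRNA of this pair was SLC38A2.

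SLC6A9 (GlyT1, chr1:44457172-44497139, minus strand, GRCh37) imports glycine with sodium and chloride. It had 8.73 and 5.24 TPM in DMSO, 5.34 and 1.78 TPM with TCP, 0.251 and 0.166 TPM with palbociclib, and 0.147 and 0.231 TPM with the combination. It was the one gene of the 10 to fall below 1 TPM in all 4 libraries with palbociclib. The log2 fold change was -2.69 ± 0.39 with palbociclib (limma adjusted p = 0.0019) and -2.71 ± 0.39 with the combination (limma adjusted p = 0.0013), and with a pseudocount of 0.1 in place of 1 these were -4.49 and -4.58. The palbociclib value was -2.64 without palbociclib replicate 2, and its call was lost there. Among all alternatives the palbociclib call was lost 3 times and the combination call 2 times, each time with a library left out.

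SLC43A1 (LAT3, chr11:57252007-57283253, minus strand, GRCh37) carries leucine and other branched or aromatic amino acids by facilitated diffusion, with no heavy chain and no exchange. It had 71.1 and 65.1 TPM in DMSO, 53.4 and 54.1 TPM with TCP, 50.8 and 48.0 TPM with palbociclib, and 35.0 and 37.0 TPM with the combination. The 4 groups did not overlap, and the smallest values were those of the combination. The log2 fold change was -0.46 ± 0.08 with palbociclib (limma adjusted p = 0.0041) and -0.90 ± 0.08 with the combination (limma adjusted p = 0.00018), both short of the fold threshold. The combination lay 0.45 ± 0.08 below palbociclib (limma adjusted p = 0.035).

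Its closest relative, SLC43A2 (LAT4, chr17:1472562-1532180, minus strand, GRCh37), which is not one of the 10, went the other way. It had 3.04 and 2.75 TPM in DMSO, 3.39 and 3.80 TPM with TCP, 12.5 and 13.9 TPM with palbociclib, and 20.7 and 19.8 TPM with the combination, and it rose by a log2 fold change of 1.87 ± 0.11 with palbociclib (limma adjusted p = 9.8e-05) and 2.45 ± 0.11 with the combination (limma adjusted p = 2.4e-05). SLC43A1 exceeded SLC43A2 by 23.4 and 23.7 times in DMSO, 15.8 and 14.2 times with TCP, 4.05 and 3.46 times with palbociclib, and 1.69 and 1.87 times with the combination. This ratio differed between the 4 groups with no overlap, and SLC43A1 remained the more abundant of the pair in all 8 libraries.

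The order of the levels shifted with these changes. In DMSO, SLC1A5 and SLC7A5 led and overlapped each other, followed by SLC38A2, SLC3A2, SLC7A1, SLC1A4 and SLC43A1, with SLC7A11 in place 8 and SLC6A9 and SLC38A1 last and overlapping. With palbociclib, SLC3A2 and SLC7A11 led and overlapped, SLC38A2 and SLC1A5 followed, and SLC7A5 stood in place 5. With the combination SLC3A2 and SLC38A2 led and overlapped, SLC1A5 came next, and SLC7A11 and SLC7A5 took places 4 and 5 without overlap.

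With TCP alone the log2 fold changes of the 10 genes ran from -0.89 for SLC6A9 to 0.06 for SLC1A4, and 9 of the 10 were below 0. Both TCP libraries lay below both DMSO libraries for 6 of the 10 genes, a pattern that 22.3% of all genes tested showed, and the other 4 genes, SLC7A5, SLC3A2, SLC1A4 and SLC6A9, overlapped. Set against the DMSO library of the same replicate number, both TCP libraries were lower for 9 of the 10 genes, as for 40.5% of all genes tested. These log2 differences were -0.04 and -0.24 for SLC7A5, -0.10 and -0.30 for SLC3A2, -0.62 and -1.17 for SLC6A9, and 0.14 and -0.02 for SLC1A4, the exception. The labels do not say whether libraries of 1 number belong together. The smallest limma adjusted p among the 8 tested genes was 0.22, for SLC43A1 at -0.34 ± 0.08, followed by 0.26 for SLC1A5 at -0.28 ± 0.07. TCP replicate 2 was the lower of its pair for 9 of the 10 genes, and DMSO replicate 2 for all 10.

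When TCP was added to palbociclib, 0 of the 8 tested genes passed the thresholds in limma, against 0.502% of all genes. An unadjusted limma p below 0.05 was held by 2 of the 8 and by 2472 of all 14151 genes tested. The 10 log2 differences between combination and palbociclib ran from -0.50 for SLC7A11 to 0.21 for SLC1A4, with a median of -0.12 beside -0.07 over all genes. The intervals were narrow for the abundant genes: SLC1A5 differed by -0.18 (95% interval -0.36 to -0.01) and SLC7A1 by -0.16 (95% interval -0.38 to 0.06). They were wide for SLC6A9, from -0.95 to 0.90.

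When palbociclib was added to TCP, 5 of the 8 tested genes were lower past the thresholds, where 12.2% of all genes were called (6.7% lower, 5.46% higher). SLC3A2 at -0.95 ± 0.14 (limma adjusted p = 0.0018), SLC38A1 at -0.89 ± 0.25 (limma adjusted p = 0.023) and SLC43A1 at -0.57 ± 0.08 (limma adjusted p = 0.0013) were the 3 genes short of a threshold. Under the alternative settings and with libraries left out, SLC6A9 kept its call 7 times and lost it 9 times. SLC38A2 kept its call 14 times and lost it 3 times. Without TCP replicate 1 SLC38A2 was at -0.91 and SLC6A9 at -1.22, and after median-ratio scaling SLC38A2 was at -0.97. The interaction, which asks whether the effect of both drugs departs from the sum of the single effects on the log2 scale, called 0 of the 8 tested genes in limma, 0 of them with an unadjusted p below 0.05. It called 0% of all genes tested, of which 904 had an unadjusted p below 0.05. Its estimates ran from -0.11 ± 0.11 for SLC43A1 to 0.87 ± 0.55 for SLC6A9.

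The remaining amino acid carriers of the solute carrier families were taken as 3 lists of 57 genes, by the membrane they serve. Of these, 28 were tested and 29 stayed below 1 TPM in all 8 libraries, 26 of them among the 35 plasma membrane carriers. Palbociclib put 6 of the 28 past the thresholds, 4 higher and 2 lower, and the combination 5, of which 3 were higher and 2 lower. Over all genes tested, 9.1% and 13.7% were past the thresholds. The carriers' median log2 fold change was -0.09 with either treatment.

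At the plasma membrane, SLC38A5 (SNAT5, a glutamine and glycine carrier) behaved like the majority of the 10 genes. It had 52.1 and 57.8 TPM in DMSO, 10.1 and 9.54 TPM with palbociclib, and 8.39 and 6.19 TPM with the combination, and it fell by 2.37 ± 0.16 (limma adjusted p = 0.00012) and by 2.77 ± 0.16 (limma adjusted p = 3.8e-05) on the log2 scale. SLC1A3, a glutamate and aspartate carrier, rose with palbociclib from 5.05 and 5.12 TPM to 10.9 and 11.5 TPM (1.0 ± 0.13, limma adjusted p = 0.0011), and with the combination it had 8.93 and 8.0 TPM (0.64 ± 0.13, limma adjusted p = 0.0053), short of the fold threshold. SLC1A3 lost its call without palbociclib replicate 2, and the other 5 carriers kept theirs. SLC7A7 was low, at 0.637 to 6.68 TPM. It was 1.34 ± 0.25 log2 units higher with the combination than with palbociclib, with a limma adjusted p of 0.037 that misses the threshold.

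In the lysosome, 2 of 9 tested carriers rose past the thresholds with palbociclib and with the combination. The shares of all genes tested that were called higher were 4.54% and 5.87%. SLC36A1 (PAT1), which exports small amino acids with protons, went from 18.1 and 21.7 TPM in DMSO to 53.9 and 54.7 TPM with palbociclib and 48.9 and 51.3 TPM with the combination (log2 fold changes of 1.41 ± 0.14 and 1.29 ± 0.14, limma adjusted p = 0.00041 and 0.00034). SLC15A3, a carrier of peptides and histidine, went from 14.7 and 12.6 TPM to 32.4 and 33.8 TPM and to 53.4 and 63.1 TPM (1.22 ± 0.11 and 2.02 ± 0.11, limma adjusted p = 0.00035 and 3.7e-05). SLC15A3 was also at 25.8 and 26.3 TPM with TCP, above both DMSO libraries, at 0.89 ± 0.11 with a limma adjusted p of 0.035. SLC38A9, the arginine sensor of mTORC1, stayed at 21.6 to 28.4 TPM in the 8 libraries.

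Of 10 tested mitochondrial carriers, SFXN1, which imports serine for one-carbon metabolism, was the one that passed the thresholds, and it was lower. The shares of all genes tested that were called lower were 4.56% with palbociclib and 7.82% with the combination. SFXN1 went from 90.0 and 91.1 TPM in DMSO to 41.3 and 39.1 TPM with palbociclib and to 33.9 and 34.8 TPM with the combination (-1.15 ± 0.07 and -1.37 ± 0.07, limma adjusted p = 9.4e-05 and 2.9e-05). SLC25A29, a carrier of basic amino acids, was at 33.8 and 33.4 TPM in DMSO and at 64.3 and 61.8 TPM with palbociclib (0.89 ± 0.08, limma adjusted p = 0.00034), short of the fold threshold.

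**Figure D4:**
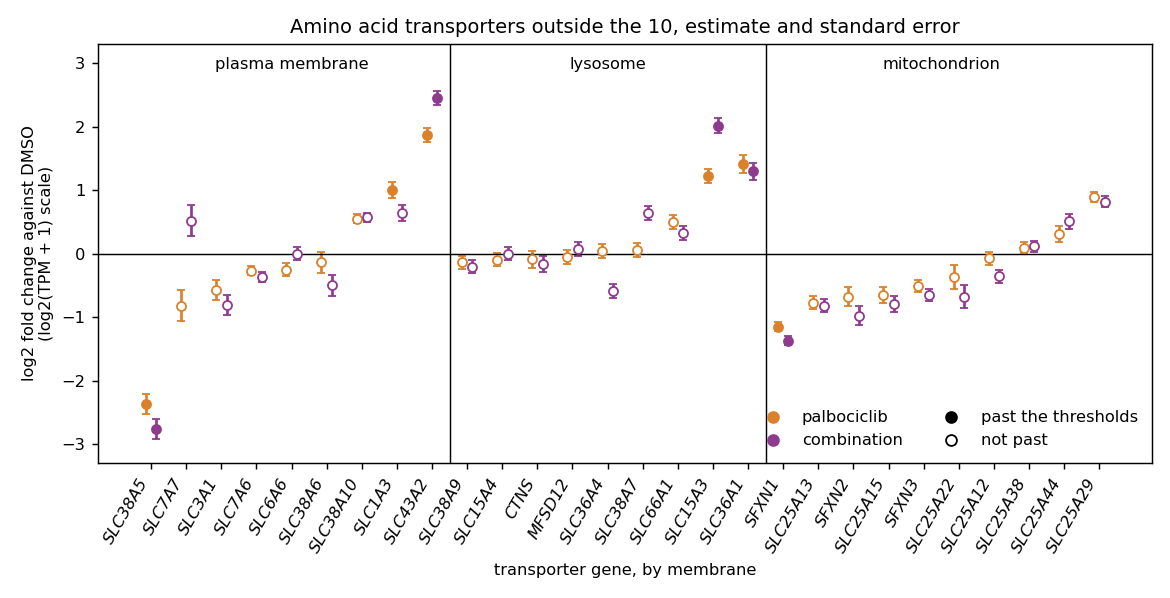
Log2 fold change against DMSO on the log2(TPM + 1) scale of the 28 tested amino acid carriers outside the 10, by membrane, with palbociclib and with the combination. Points are limma estimates, bars are standard errors, and filled points are past the thresholds. SLC38A5 lies lowest at -2.37 and -2.77 and SLC43A2 highest at 1.87 and 2.45.

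Several of the 10 genes are known targets of ATF4, the transcription factor translated when amino acids are scarce or the endoplasmic reticulum is stressed, and SLC7A11 is a target both of ATF4 and of NRF2, the factor of the antioxidant response. A list of each program was therefore read beside the transporters. In the ATF4 list, 14 of 15 genes were tested and 11 of them were lower past the thresholds with palbociclib and with the combination, while 0 were higher. Over all genes tested, 4.56% and 7.82% were lower. The list was chosen with earlier results of these data known, so its counts are no independent evidence of a direction. The list's median log2 fold change was -2.28 and -1.94. Without palbociclib replicate 2, 6 of the 11 kept their call with palbociclib, and DDIT3, DDIT4, SESN2, TRIB3 and VLDLR did not. With TCP 0 of 14 passed the thresholds in limma, and the median was -0.40. An unadjusted limma p below 0.05 was held by 2 of the 14 and by 1241 of all 14151 genes tested.

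ATF4 itself had 811 and 779 TPM in DMSO and 275 and 295 TPM with palbociclib (-1.48 ± 0.08, limma adjusted p = 5.6e-05). PHGDH, which opens serine synthesis, went from 274 and 179 TPM to 2.09 and 1.36 TPM, and ASNS, the asparagine synthetase, from 209 and 137 TPM to 19.5 and 15.7 TPM. The falls of PHGDH and ASNS were -6.36 ± 0.38 and -3.20 ± 0.36 (limma adjusted p = 9.2e-05 and 0.00067). TRIB3, an inhibitor of ATF4 activity, PSAT1, the next enzyme of serine synthesis, DDIT4, an inhibitor of mTORC1, and CHAC1, which degrades glutathione, fell by 3.09, 3.05, 2.80 and 2.61 on the log2 scale with limma adjusted p of 0.001, 0.00034, 0.0011 and 0.0007. SLC7A11 was higher in the libraries in which the 11 called genes of the ATF4 list were lower. Its direction was part of the choice of transporters, and a role of ATF4 in it was not tested.

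In the NRF2 list, all 13 genes reported here were tested, 3 were higher with palbociclib and 4 with the combination, and 0 were lower. Over all genes tested, 4.54% and 5.87% were higher, and this list too was chosen with earlier results known. HMOX1, which breaks down heme, had 4.67 and 2.95 TPM in DMSO, 17.3 and 21.1 TPM with palbociclib, and 32.0 and 42.0 TPM with the combination (2.09 ± 0.22 and 2.99 ± 0.22, limma adjusted p = 0.00054 and 8.8e-05). The other genes past the thresholds with palbociclib were PGD, an enzyme of the pentose phosphate pathway, and the ferritin chain FTL, and with the combination the ferritin chain FTH1 joined them. NFE2L2, which encodes NRF2, stayed at 116 to 164 TPM in the 8 libraries. GCLM, a subunit of the enzyme that uses the cysteine SLC7A11 brings in, was at 26.5 and 22.9 TPM in DMSO and 17.0 and 14.3 TPM with palbociclib (-0.63 ± 0.14, limma adjusted p = 0.01). With the combination GCLM had 12.8 and 12.1 TPM (-0.93 ± 0.14, limma adjusted p = 0.0015), short of the fold threshold. NQO1 had 27.8 and 42.6 TPM in DMSO and 18.5 and 25.9 TPM with palbociclib, a log2 difference of -0.63 ± 0.30 (limma adjusted p = 0.13). With the combination NQO1 had 40.6 and 56.6 TPM, which was 0.47 ± 0.30 above DMSO (limma adjusted p = 0.23) and 1.09 ± 0.30 above palbociclib (limma adjusted p = 0.11). HMOX1 and PGD kept their palbociclib calls without palbociclib replicate 2, and FTL did not.

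**Figure D5:**
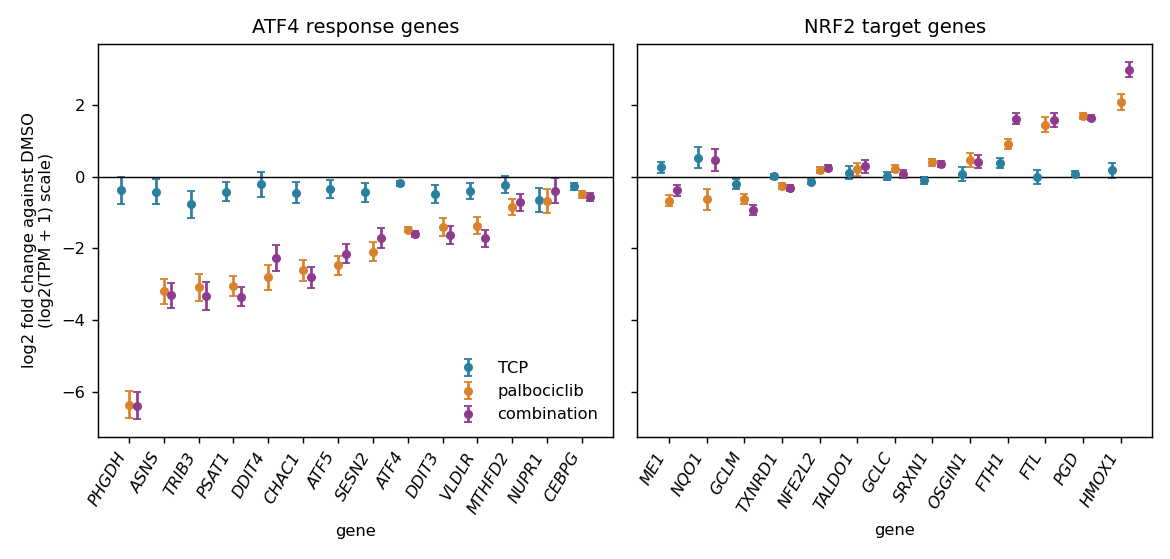
Log2 fold change against DMSO on the log2(TPM + 1) scale of the tested genes of the ATF4 response list (left) and the NRF2 target list (right), for TCP, palbociclib and the combination. Points are limma estimates and bars are standard errors. PHGDH lies lowest at -6.36 with palbociclib, and HMOX1 highest at 2.99 with the combination.

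Of 7 glutathione genes tested, 1 was lower with palbociclib (CHAC1), and with the combination GGT1, which recovers cysteine from glutathione outside the cell, was higher in addition (1.11 ± 0.08, limma adjusted p = 8.3e-05). GPX4, which uses glutathione to remove lipid peroxides, had 295 to 412 TPM in the 8 libraries and a log2 fold change of 0.18 ± 0.13 with palbociclib (limma adjusted p = 0.3). Of 10 tested genes that sense amino acids for mTORC1, SESN2 was lower (-2.09 ± 0.27, limma adjusted p = 0.0012) and SESN3 higher (1.63 ± 0.17, limma adjusted p = 0.00052) with palbociclib, the first not without palbociclib replicate 2. With the combination LARS1, the leucyl-tRNA synthetase, was lower as well (-1.17 ± 0.11, limma adjusted p = 0.00026). Over all genes tested, 9.1% were past the thresholds with palbociclib and 13.7% with the combination. CHAC1 and SESN2 also belong to the ATF4 list, so their calls are the same ones counted there.

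The promoters of the 10 genes were searched for the core of the element that C/EBP and ATF factors bind together, TGATGNAA on either strand. RefSeq promoters (GRCh38.p14, 250 bases before to 50 bases after a gene start) were found for 9 of the 10 genes, all but SLC7A11, 16 promoters in all. The core was in 5 of these 16 promoters, 1 each of SLC1A4, SLC1A5, SLC38A1, SLC3A2 and SLC7A1, and in 3.62% of 35116 promoters of all genes. Promoters of the ATF4 list held it in 3 of 22, and those of the NRF2 list in 0 of 13. All these lists were chosen with earlier results known, and a role of the matches in the changes was not tested. Each match is shown within 30 bases, 5′ to 3′ along the gene, with the matched letters in capitals. SLC1A4 and SLC3A2 hold it as the reverse complement.
SLC1A4, chr2:64989381-64989410, plus strand: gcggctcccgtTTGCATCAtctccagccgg
SLC1A5, chr19:46784893-46784922, minus strand: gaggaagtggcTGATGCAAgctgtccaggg
SLC38A1, chr12:46266502-46266531, minus strand: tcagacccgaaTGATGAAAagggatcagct
SLC3A2, chr11:62881719-62881748, plus strand: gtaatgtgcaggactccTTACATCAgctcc
SLC7A1, chr13:29595663-29595692, minus strand: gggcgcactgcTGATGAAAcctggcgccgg

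SLC1A4, SLC1A5, SLC38A1 and SLC3A2 each have further RefSeq promoters upstream of the one shown, and those lack this core. Positions are therefore counted from the start that belongs to the promoter with the match. The match begins 7 bases before that start in SLC1A4, 97 in SLC1A5 and 4 in SLC38A1. In SLC3A2 and SLC7A1 it begins 38 and 8 bases past that start. The log2 fold changes of these 5 genes with palbociclib were -1.95, -1.95, -1.49, -1.02 and -1.59. SLC7A5, SLC38A2, SLC6A9 and SLC43A1, whose promoters in this window lack these letters, were at -2.45, -1.38, -2.69 and -0.46. The core of the antioxidant response element, TGACNNNGC, was in 4 of the 16 promoters and in 13.3% of all promoters, and the E-box CACGTG was in 3 of the 16 and in 7.26% of all. This antioxidant core was in 6 of 22 promoters of the ATF4 list and in 5 of 13 of the NRF2 list. Matches to different motifs did not overlap in these promoters.

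The 250 bases before the start of SLC7A5 are shown because its share of light chain mRNA changed most, and no promoter of SLC7A11 was found. The stretch is chr16:87869508-87869757 on the minus strand of GRCh38.p14, and its E-box, in capitals, begins 130 bases before the start.
SLC7A5: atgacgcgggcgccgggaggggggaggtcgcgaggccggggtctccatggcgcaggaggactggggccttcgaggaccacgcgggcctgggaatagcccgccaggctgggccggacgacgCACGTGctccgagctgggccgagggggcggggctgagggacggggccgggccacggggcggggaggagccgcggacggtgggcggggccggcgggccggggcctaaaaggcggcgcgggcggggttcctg

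Among 2943 tested genes with at least 1 log2 unit between their highest and lowest group mean, those whose log2(TPM + 1) was most like SLC7A5 over the 8 libraries were MACROD1 (Pearson r = 0.999), PHGDH, MTHFD1L, CDH24 and GARS, the last at r = 0.996. Those most like SLC7A11 were FNDC3B (r = 0.997), ACSL1, SLC7A11-AS1, DGAT2 and LINC00886 (r = 0.991). The 8 points share 4 treatments, so these values describe the step between libraries with and without palbociclib. SLC7A5 itself correlated with SLC7A11 at r = -0.89 over the same 8 libraries, and with the 8 other transporters at 0.81 (SLC43A1) to 0.99.

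SLC7A11-AS1 lies on the plus strand at chr4:138978618-139099331 in GRCh37 and overlaps SLC7A11 on the opposite strand. It had 4.02 and 4.36 TPM in DMSO, 15.9 and 20.1 TPM with palbociclib, and 13.8 and 14.2 TPM with the combination, and rose by 1.86 ± 0.25 and 1.53 ± 0.25 on the log2 scale (limma adjusted p = 0.0014 and 0.0022). The first of these calls was lost without palbociclib replicate 2. The study used a stranded library kit, but the strand setting of the counting is not given in the sources used here. Whether reads of the gene and its antisense partner were kept apart where they overlap is therefore unknown. SLC7A11 stood at 5.27 to 7.27 times the antisense transcript in the 8 libraries. SLC7A5 has near copies on the same chromosome, SLC7A5P1 and SLC7A5P2, which could exchange reads with it. They were listed at 2.25 to 6.23 TPM and 0.729 to 3.09 TPM, with SLC7A5 at 54.4 TPM or more in every library.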

How the data were processed

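RNA from 8 MV4-11 libraries was analysed, grouped by the submitters' labels. The deposited values are TPM per gene symbol. The authors mapped the reads to hg19 (GRCh37) with subread-align and counted them with featureCounts 1.6.4 before conversion, and the submitters' processing notes also list SAMtools 1.9 and DESeq2 1.26.0. The libraries were made with a stranded mRNA kit, but the strand setting of the counting and the annotation are not given in the sources used here. TPM share a fixed total, so abundant genes that take more lower all others, and precision is limited by 2 libraries a group.

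From the TPM, log2(TPM + 1) was fitted with limma 3.58.1 in R 4.3.3 over the 14151 genes that 2 or more libraries held at 1 TPM or above, with 1 coefficient for each of the 4 groups, variances moderated with a mean-variance trend, and 4 residual degrees of freedom. P-values were adjusted by Benjamini and Hochberg over all genes tested. Errors are standard errors on the log2(TPM + 1) scale, which understates changes of low genes. The test was tried on simulated data.

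The transporters and all gene lists were chosen with earlier results of these data known, and 1 gene of the NRF2 list is not reported here. All 10 transporters are named. From the other lists, genes past the thresholds against DMSO are named, at most 6 of the largest a list and comparison, plus up to 3 for their level, and SLC7A7 and SLC25A29 count among these. Genes alike to SLC7A5 and SLC7A11 are the 5 with the highest Pearson r. The symbols PQLC2, GATSL3, LARS and C7orf60 of the table were read as SLC66A1, CASTOR1, LARS1 and SAMTOR. Gene coordinates are from GENCODE v44 lifted to GRCh37 and promoters from RefSeq on GRCh38.p14. Figures were drawn with matplotlib 3.10.9. Alternatives were another pseudocount, other filters on low values, quantile and median-ratio scaling, a replicate block, fewer groups in the fit, no variance trend, a looser threshold, and each library left out in turn.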

Additional observations from a re-analysis of the deposited data

How the results depend on the processing

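With palbociclib, 7 of the 8 tested transporters were past the thresholds. The count was 5 to 7 under the 9 other settings and 4 to 7 when a library was left out. The 4 came without palbociclib replicate 2, the library with the highest stromal marker sum, and equally without palbociclib replicate 1 and without DMSO replicate 1, and each time SLC3A2, SLC38A1 and SLC6A9 lost their calls. With the combination the count was 5 to 7 under other settings and with a library left out. For the combination against TCP it was 5, with 3 when only those groups were fitted and 3 to 6 with a library left out, the 3 without TCP replicate 1. Of 796 alternative values of the 8 tested genes over the 6 comparisons, 751 kept their direction and their side of the thresholds, 32 lost a call, 2 gained one, and 11 changed sign, all of them in comparisons where the gene was not past the thresholds. Of 202 alternative values of SLC7A5 and SLC7A11, 190 moved by less than their standard error and 12 by more, and 7 changed sign. These 7 were SLC7A5 for TCP against DMSO (-0.381 to 0.103 with a library left out) and the interaction of SLC7A5 and of SLC7A11 (-0.208 to 0.277 and -0.315 to 0.634). For the combination against palbociclib, SLC38A1 was 0.0082 with a pseudocount of 0.1 and 0.028 after median-ratio scaling. With a library left out, SLC38A1 was -0.214 to 0.201 and SLC6A9 -0.0738 to 0.0281 in that comparison, SLC1A4 was -0.0466 to 0.159 for TCP against DMSO, and the interaction was -0.13 to 0.268 for SLC3A2 and -0.0149 to 0.464 for SLC38A2. The mean of at least 5 TPM left SLC38A1 and SLC6A9 untested.

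Median-ratio scaling moved the median over all genes by 0.147 with palbociclib and 0.208 with the combination, and quantile normalization by 0.104 and 0.153. The share of all calls that were lower went from 50.1% to 33.6% and 39.1% with palbociclib, and from 57.2% to 38.1% and 43.9% with the combination. Against this shift the median of the 10 transporters went from -1.54 to -1.40 and -1.47, and from -1.62 to -1.43 and -1.50. SLC3A2 with palbociclib and with the combination lost its call under both scalings.

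The groups share the replicate numbers 1 and 2. The correlation across genes of how libraries of 1 number deviate from their groups was 0.169 to 0.491 over the 6 pairs of groups, but 2 numbers do not settle a pairing and the labels do not state what they share. With the replicate block the counts of transporters past the thresholds were 0, 7, 7, 0, 5 and 0 over the 6 comparisons, as without it, and 1 of the 28 other carriers, SLC7A7, passed for the combination against palbociclib, where 0 had passed. It also passed at an adjusted p below 0.05. Depth is unknown, so the precision of genes near 1 TPM cannot be stated beyond the spread of 2 libraries.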
